A study of Mus musculus with 6 samples.

Results

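Foxf1, Foxf2, Foxc1, Foxc2, Foxl1, Foxd1 and Foxd2 are forkhead transcription factor genes active in embryonic mesenchyme, the loose connective tissue that fills the space around the aorta. They were chosen by gene symbol from the Foxf, Foxc, Foxl1 and Foxd groups, with earlier results of these data known. Foxd3 and Foxd4, also of the Foxd group, were counted among the other forkhead genes. All 7 had a row, out of 24011 named genes. Their levels were measured in ventral and dorsal aortic tissue of C57Bl/6 mouse embryos on embryonic day 11.5, when the aortic region is producing blood stem cells. Ventral tissue lay beneath the aorta. Dorsal tissue lay above the aortic roof and reached up to the notochord. Both were cut from the same embryos by laser microdissection and each was profiled on 3 Affymetrix arrays, labelled as biological replicates 1 to 3. No embryo was treated or genetically altered according to the labels.

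Forkhead factors bind DNA through a shared winged-helix domain, and several of them are switched on in mesenchyme by hedgehog signals from neighbouring epithelium or notochord. Foxf1 and Foxf2 are best known from the splanchnic mesoderm that surrounds gut and lung, where Foxf1 is also needed for blood vessel formation. Foxc1 and Foxc2 act in paraxial mesoderm, in the sclerotome that forms vertebrae and in arteries. Foxl1 marks mesenchyme beneath gut epithelium, Foxd1 marks stroma of the developing kidney, and Foxd2 is expressed in paraxial and intermediate mesoderm.

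Of the 7 genes, 6 reached the mean level needed for testing, 4.52 on the log2 scale, which is the median over all probe sets, and Foxd1 lay just below it at 4.51. Foxf2 was lower in ventral than in dorsal tissue and was the only member that passed limma's test at an adjusted p of 0.05. That call rests on a fit with the replicate number as a block and was lost without it (adjusted p = 0.0742) and with it as a random block (0.0588). In the blocked fit 1 of the 6 tested members passed, while 0.515% of the 12028 genes tested passed in either direction and 0.208% passed as higher in dorsal tissue. Foxf1 and Foxl1 had lower means in ventral tissue without passing, and the means of Foxl1, Foxc1, Foxc2, Foxd1 and Foxd2 differed between the tissues by less than 1 on the log2 scale. The levels are log2 values that the authors normalised with RMA, so that a difference of 1 corresponds to a 2-fold change. Because each sample is bulk tissue, fewer cells of a type and less RNA per cell cannot be told apart. The array medians were 4.49 to 4.55.

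**Figure D1:**
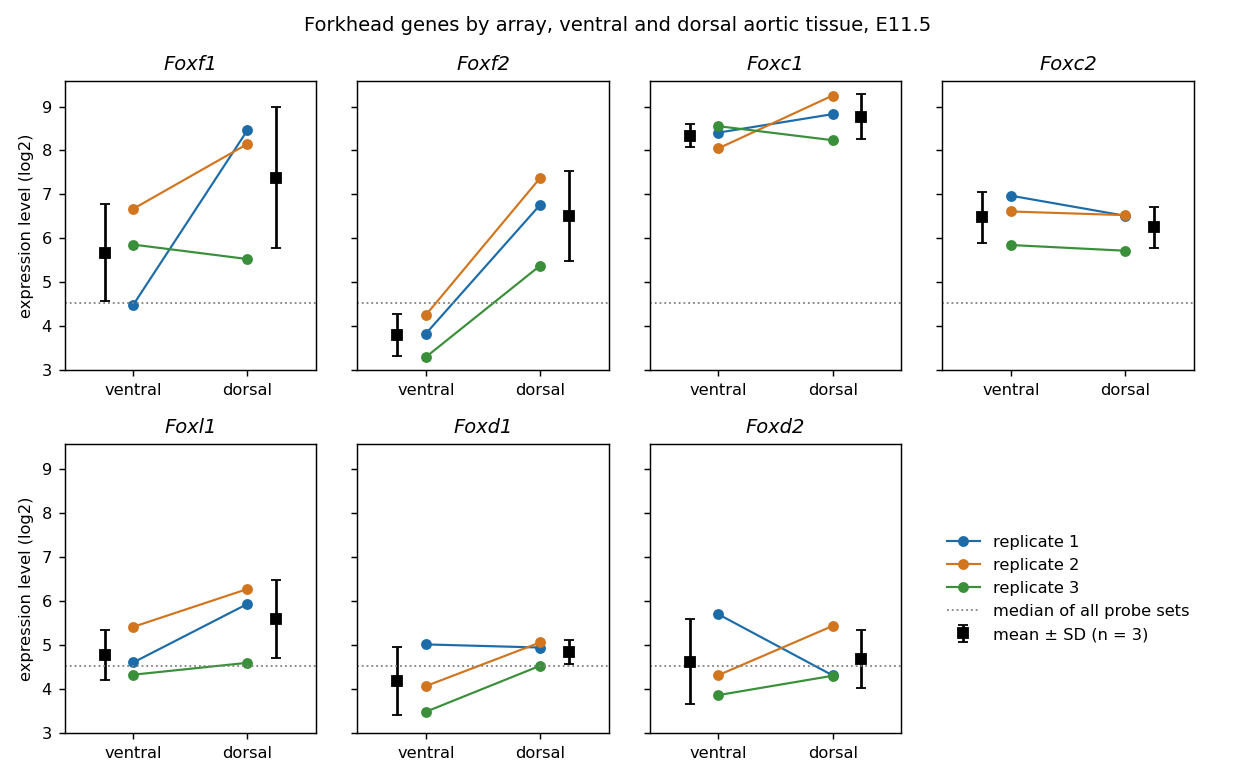
Level (log2) of each of the 7 forkhead genes on each array, ventral left and dorsal right, with lines joining arrays of the same replicate number, black squares for mean ± SD (n = 3) and a dotted line at the median of all probe sets (4.52). The lines of Foxf2 and Foxl1 all run upward to dorsal tissue. The groups of Foxf2 do not overlap, as for 15.4% of all tested genes, whereas the groups of the other 6 genes do.

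Foxf2 lies on chromosome 13 beside Foxc1, the next annotated gene with a row in the table. The windows around their annotated starts are shown because Foxf2 was the member that passed the test and Foxc1 is its neighbour, which did not pass. Each window runs from 250 bases before to 50 bases after the start, from RefSeq on GRCm38.p6, at chr13:31625566-31625865 for Foxf2 and chr13:31806396-31806695 for Foxc1, both on the plus strand. Capitals mark the GC box GGGCGG and the CCAAT box CCAAT, each searched on both strands.
Foxf2: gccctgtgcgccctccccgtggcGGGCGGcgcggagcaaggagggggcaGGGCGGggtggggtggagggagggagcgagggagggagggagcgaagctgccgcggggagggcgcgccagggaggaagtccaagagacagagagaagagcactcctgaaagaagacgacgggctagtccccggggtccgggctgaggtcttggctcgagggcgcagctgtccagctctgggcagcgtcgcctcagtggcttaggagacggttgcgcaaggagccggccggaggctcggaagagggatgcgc
Foxc1: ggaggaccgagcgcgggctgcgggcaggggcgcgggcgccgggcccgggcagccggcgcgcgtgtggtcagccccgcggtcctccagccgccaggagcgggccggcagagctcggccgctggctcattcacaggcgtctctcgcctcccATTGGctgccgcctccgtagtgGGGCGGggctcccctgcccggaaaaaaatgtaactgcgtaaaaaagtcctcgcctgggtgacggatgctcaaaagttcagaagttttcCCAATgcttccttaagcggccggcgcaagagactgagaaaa
The Foxf2 window held 2 GC boxes, whose first bases lay 227 and 201 bases before the start, and no CCAAT box. The Foxc1 window held 1 GC box, 79 bases before the start, and 2 CCAAT boxes, 1 on each strand. Of 32851 RefSeq windows of this length, 35.7% held a GC box and 37.4% a CCAAT box. The Gli motif GACCACCCA, the binding sequence of the hedgehog effectors, and the forkhead motif TGTTTAC were found in neither window, nor in those of Foxd1 and Foxd2, against 0.253% and 3.65% of all windows. The sequences were rich in G and C, at 71.3% for Foxf2 and 67.3% for Foxc1, against a median of 52.7%. Windows for 4 of the 7 members were in the RefSeq table used here.

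Foxf2, a factor of gut mesenchyme, palate and brain pericytes, had levels of 3.82, 4.25 and 3.29 (log2) in ventral tissue, against 6.76, 7.37 and 5.37 in dorsal tissue, for replicates 1, 2 and 3. All 3 ventral arrays lay below the median of all probe sets and all 3 dorsal arrays above it, and every ventral array was below every dorsal one. The mean was 3.79 ± 0.48 in ventral and 6.50 ± 1.02 in dorsal tissue (SD, n = 3 each). The log2 fold change was −2.71 ± 0.25 (SE, 95% interval −3.30 to −2.12), a 6.56-fold lower deposited value in ventral tissue, with an adjusted p of 0.0183 in limma. Only 6 of the 12028 tested genes had a more negative log2 fold change. With ventral levels this close to the array's background, the fold gives no exact ratio of transcript.

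Foxf2 was lower in ventral tissue in all 3 same-numbered pairs, by 2.94, 3.12 and 2.08 on the log2 scale. Foxf2 and Foxl1 were the 2 members of which this was true, as it was for 16.9% of all tested genes. Foxf2 alone had groups that did not overlap, where 15.4% of all tested genes had none and 7.88% had dorsal arrays above all ventral ones. Replicate 3 was the lowest array of Foxf2 in both tissues, and the replicate number used as a block in the fit took up that shared shift. Without the block the standard error was 0.49 and the call was lost (adjusted p = 0.0742), which left 0 of the 6 tested members called, where 0.491% of all tested genes passed in that fit. It was also lost without the brightness filter, where 10 of 24011 genes passed, or 0.0416% (adjusted p = 0.0753). Leaving out replicate 1, 2 or 3 did not end it (adjusted p from 0.0110 to 0.0269).

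Foxf1, the closest relative of Foxf2, had levels of 4.48, 6.67 and 5.85 in ventral tissue, against 8.46, 8.15 and 5.52 in dorsal tissue. Dorsal replicates 1 and 2 were above every ventral array. Dorsal replicate 3 was not, and it lay below its own ventral partner by 0.33. The mean was 5.67 ± 1.11 in ventral and 7.38 ± 1.61 in dorsal tissue (SD, n = 3 each), and limma gave a difference of −1.71 ± 0.72 (SE, log2, 95% interval −3.44 to 0.02). The adjusted p was 0.468, and 38 tested genes had a more negative log2 fold change. Without replicate 3 the log2 fold change was −2.73 ± 0.55 (adjusted p = 0.163), and without replicate 1 it was −0.57 ± 0.42 (adjusted p = 0.766), so both replicates weigh on the value.

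Some markers of other cells also set dorsal replicate 3 and ventral replicate 1 apart. Dbh, which makes noradrenaline, had levels of 5.44, 8.13 and 8.59 in ventral tissue, against 9.55, 9.66 and 6.75 in dorsal tissue, and Th, which makes the dopamine precursor, had 4.68, 5.87 and 6.33 against 7.01, 6.96 and 5.09. For both genes ventral replicate 1 was the lowest of all 6 arrays and dorsal replicate 3 the lowest dorsal array, as for Foxf1. The other tested genes of their marker list, Phox2a and Foxd3, differed from this. Phox2a was lowest on dorsal replicate 3, with 5.07, 5.16 and 5.24 in ventral tissue, against 5.94, 5.63 and 4.97 in dorsal tissue. Foxd3 was lowest on dorsal replicate 1, with 5.68, 5.25 and 5.18 in ventral tissue, against 5.16, 5.93 and 5.31 in dorsal tissue. Of 9 listed sympathoadrenal and neural crest markers, 4 were tested, with summed log2 levels of 20.9 to 25.3 in ventral and 22.1 to 28.2 in dorsal tissue. Sox10 and Ngfr, which mark neural crest derivatives, lay below the filter. None of the 4 passed in limma, none had an unadjusted p under 0.05, and the median log2 fold change was −0.54. Sox2, a factor of the neural tube, reached 9.69 on dorsal replicate 3, against 4.59 to 6.50 on the other 5 arrays. The summed log2 level of 7 tested neuronal and neural tube markers, of 9 listed, was 40.9 to 45.0 in ventral and 46.3 to 54.2 in dorsal tissue, highest on dorsal replicate 3, and Elavl4 and Pax6 lay below the filter. The part of these cells in the Foxf1 values was not tested.

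Foxl1, a factor of the mesenchyme beneath gut epithelium, had levels of 4.60, 5.41 and 4.32 in ventral tissue, against 5.93, 6.27 and 4.59 in dorsal tissue. It was lower in ventral tissue in every same-numbered pair, by 1.33, 0.86 and 0.27, yet the groups overlapped because dorsal replicate 3 was as low as ventral replicate 1. Its log2 fold change was −0.82 ± 0.24 (SE, 95% interval −1.40 to −0.24) with an adjusted p of 0.280. Its unadjusted p of 0.0127 in limma did not hold without the block (0.109). Of the 6 tested members, 2 had an unadjusted p under 0.05 (Foxf2 and Foxl1), where 10.7% of all tested genes did.

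Foxc1, which acts in somites, arteries and the eye, had levels of 8.41, 8.05 and 8.55 in ventral tissue, against 8.83, 9.25 and 8.23 in dorsal tissue. The groups overlapped, and replicate 3 was higher in ventral tissue where replicates 1 and 2 were lower. Its log2 fold change was −0.44 ± 0.30 (SE, 95% interval −1.15 to 0.28, adjusted p = 0.692). Foxc2, its relative in somites, arteries and lymphatic vessels, had levels of 6.97, 6.61 and 5.84 in ventral tissue, against 6.51, 6.52 and 5.71 in dorsal tissue. It was the only member with a positive mean difference, which was above 0 in all 3 pairs (0.46, 0.08 and 0.13). The log2 fold change was 0.22 ± 0.18 (SE, adjusted p = 0.748), and its interval of −0.21 to 0.66 does not reach 1 in either direction.

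Foxd1, which marks kidney stroma, had levels of 5.01, 4.06 and 3.47 in ventral tissue, against 4.94, 5.05 and 4.52 in dorsal tissue. Its dorsal arrays lay close together and the ventral ones were spread, with ventral replicate 1 among the dorsal values. Since it lay below the filter it was fitted over all 24011 named genes, which gave −0.66 ± 0.26 on the log2 scale (SE, adjusted p = 0.615). Foxd2 had levels of 5.69, 4.31 and 3.85 in ventral tissue, against 4.30, 5.43 and 4.29 in dorsal tissue. The pairs went different ways, with differences of 1.39, −1.12 and −0.44, and their mean of −0.06 ± 0.45 (SE) had an adjusted p of 0.983. Its 95% interval of −1.14 to 1.03 includes a 2-fold change in either direction, so that a difference of that size was not detectable here. Its sign turned without replicate 2 (0.48) or replicate 3 (0.14).

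The spread between arrays was larger for these genes than for most. The median SD of the 6 tested members was 0.57 in ventral and 0.77 in dorsal tissue, against 0.233 and 0.220 over all tested genes. Replicate 3 was the lowest ventral array for 5 of the 7 members and the lowest dorsal array for all 7. It was the lowest of both tissues at once for 5 members, Foxf2, Foxc2, Foxl1, Foxd1 and Foxd2, where this held for 13.6% of all tested genes. Dorsal replicate 3 was the lowest dorsal array for 35.9% of all tested genes and ventral replicate 3 the lowest ventral array for 34.1%. The labels do not say what set replicate 3 apart.

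Close relatives were compared within each array, by the log2 difference between both genes. For Foxf2 minus Foxf1 this averaged −1.88 ± 1.06 in ventral and −0.88 ± 0.78 in dorsal tissue (SD, n = 3 each), a change of −1.003 with an exact permutation p of 0.3. For Foxc2 minus Foxc1 it averaged −1.86 ± 0.73 in ventral and −2.52 ± 0.20 in dorsal tissue (n = 3 each), a change of 0.66 with an exact permutation p of 0.3. For Foxd2 minus Foxd1 it averaged 0.44 ± 0.22 in ventral and −0.16 ± 0.51 in dorsal tissue (n = 3 each), a change of 0.60 with an exact permutation p of 0.2. All 3 two-sided tests gave 0.3 after Benjamini-Hochberg adjustment over the 3 pairs. They ran over all 20 assignments of arrays to tissues, without the replicate number as a block, and in this way 3 arrays against 3 cannot go below 0.1. Thus no pair of relatives was shown to differ unequally between the tissues, nor to act alike.

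Among 21 other forkhead genes that passed the filter, of 37 listed and 36 in the table, none passed in limma at an adjusted p of 0.05. An unadjusted p under 0.05 was found for 10.7% of all tested genes and for 3 of these 21. These were Foxa1, a pioneer factor of endoderm (−0.69 ± 0.23), Foxq1 (−0.74 ± 0.25) and Foxp1, which is broadly expressed in mesoderm and blood (0.66 ± 0.22). Their adjusted p was 0.348, 0.362 and 0.348. The log2 fold changes of the 21 genes ran from −0.74 to 0.66, with a median of −0.09. The 6 tested members had a median of −0.63, with 5 negative values, against a median of −0.015 and 52.3% negative values over all tested genes. Of the 6, 2 (Foxf2 and Foxf1) were at or below −1, which held for 1.16% of all tested genes. Since the members were chosen with earlier results of these data known, these values describe the members and test nothing about the group. Foxd3 of the Foxd group (−0.10) was counted among the 21 other genes. The other 15 forkhead genes in the table had mean levels of 3.15 to 4.43 and were not tested, among them Foxa2, which marks notochord and floor plate.

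**Figure D2:**
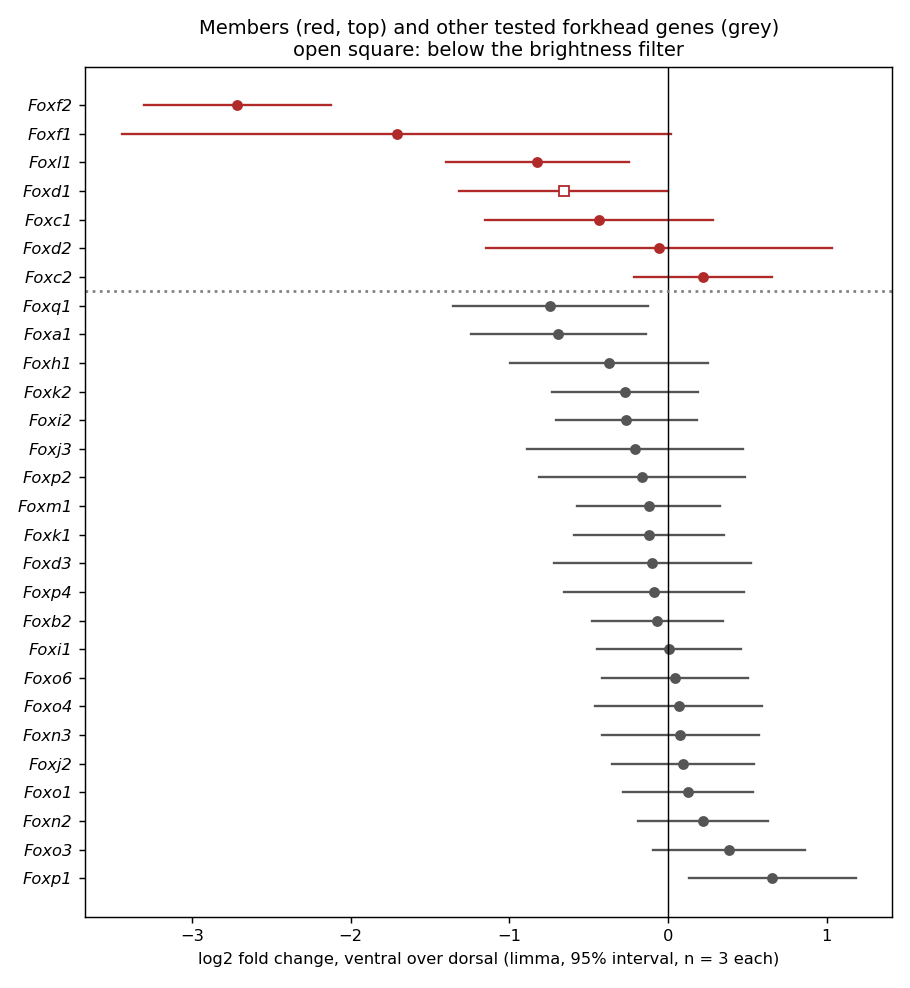
Log2 fold change, ventral over dorsal, with its 95% interval from limma (n = 3 each) for the 7 members (red, top) and 21 other tested forkhead genes (grey); the open square is Foxd1, fitted without the brightness filter. With the replicate number as a block, the interval of Foxf2 lies wholly below −2, but without the block it is −3.83 to −1.59. All 21 other forkhead genes have values between −0.74 and 0.66.

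Foxf1, Foxc2 and Foxl1 lie close together in gene order, as do Foxf2 and Foxc1, and Foxd2 lies near Foxe3, a further forkhead gene that was below the filter. Which genes lie next to the members was read from the RefSeq gene table of GRCm38.p6, used for names and order only. On chromosome 13 the order is Foxq1, the long noncoding RNA 1700018A04Rik, Foxf2, Foxc1 and Gmds, an enzyme of GDP-fucose synthesis. The noncoding RNA 1700018A04Rik, the gene before Foxf2, had levels of 4.13, 3.89 and 3.81 in ventral tissue, against 6.00, 6.11 and 4.73 in dorsal tissue. Its groups did not overlap, and the fitted difference was −1.67 ± 0.28 (SE, log2) with an adjusted p of 0.0824 in limma. That adjusted p was 0.129 without the block, 0.222 without the filter and 0.0344 without replicate 3. Foxq1, a further forkhead gene placed before 1700018A04Rik, was lower in ventral tissue in all 3 pairs, by 1.13, 1.04 and 0.06. Beyond Foxf2 the differences were smaller, at −0.44 ± 0.30 for Foxc1 and 0.01 ± 0.26 for Gmds.

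**Figure D3:**
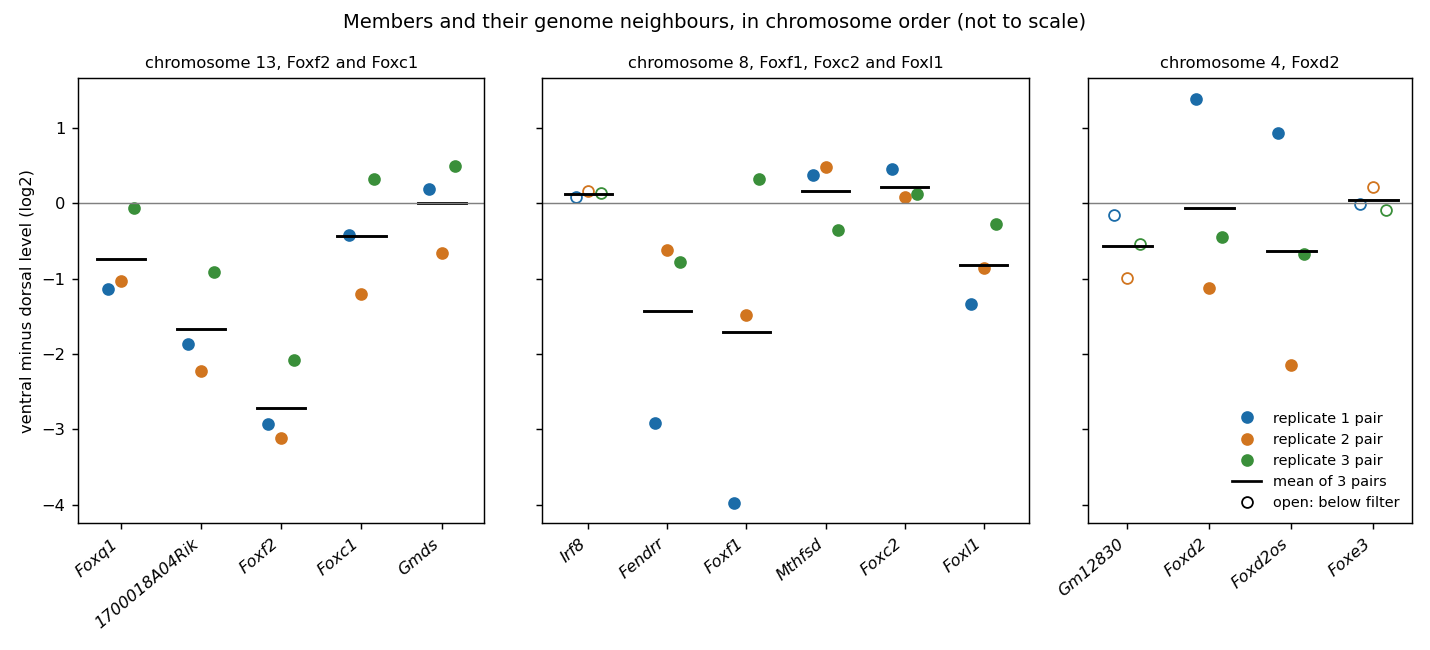
Ventral minus dorsal level (log2) of members and their genome neighbours, in chromosome order and not to scale, with a point for each same-numbered pair, a bar for the mean of 3 pairs and open points for genes below the brightness filter. Foxf2 and 1700018A04Rik lie below 0 in all pairs, while the adjacent Foxc1 and Gmds lie on both sides of 0.

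On chromosome 8 the order is Fendrr, Foxf1, Mthfsd, Foxc2 and Foxl1. Fendrr is a long noncoding RNA needed for heart and body wall development in mouse, and it lies next to Foxf1. It had levels of 3.86, 5.11 and 4.18 in ventral tissue, against 6.77, 5.73 and 4.95 in dorsal tissue, lower in ventral tissue in each pair although ventral replicate 2 overlapped the dorsal arrays. The fitted difference was −1.43 ± 0.45 (SE, log2; adjusted p = 0.312), and, unlike Foxf1, it was lower in ventral tissue in replicate 3 too (by 0.77). Without replicate 1 it was −0.70. Mthfsd, a folate-related gene placed between Foxf1 and Foxc2, differed by 0.17 ± 0.22 (SE, log2; adjusted p = 0.865). On chromosome 4, Foxd2os, a noncoding RNA next to Foxd2, had levels of 7.04, 4.81 and 4.67 in ventral tissue, against 6.11, 6.95 and 5.35 in dorsal tissue. As for Foxd2, its replicate 1 pair was positive (0.93) and its replicate 2 and 3 pairs negative (−2.14 and −0.68). No adjusted p was below 0.05 for Foxd2os (−0.63 ± 0.52, adjusted p = 0.760), and its sign turned without replicate 2.

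Neighbouring members were then compared within arrays, a comparison chosen after their values were seen. Foxf2 minus Foxc1 was −4.58, −3.80 and −5.26 in ventral tissue, against −2.07, −1.88 and −2.86 in dorsal tissue, with groups that did not overlap. The change of −2.28 had an exact permutation p of 0.1 and an adjusted p of 0.15 over 3 such pairs. Without the replicate number as a block, as here, 3 arrays against 3 allow no exact permutation p below 0.1. Foxl1 minus Foxc2 changed by −1.05 (exact permutation p = 0.1, adjusted p = 0.15), and Foxf1 minus Foxc2 by −1.93 (exact permutation p = 0.3, adjusted p = 0.3).

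Genes of the hedgehog pathway, which acts upstream of Foxf1 and Foxf2 in several embryonic tissues, gave a mixed picture. Of 14 tested genes of 16 listed, none passed in limma and the median log2 fold change was 0.07. An unadjusted p under 0.05 was found for 10.7% of all tested genes and for 2 of these 14. Those 2 were Ptch1, the hedgehog receptor and a direct target of the pathway (−1.63 ± 0.24, adjusted p = 0.0638), and Gli1, a target and effector (−1.20 ± 0.22, adjusted p = 0.106). The adjusted p of Ptch1 in limma was 0.156 without the block, 0.162 without the filter and 0.0288 with an intensity trend. Ptch1 had levels of 7.89, 6.91 and 6.92 in ventral tissue, against 9.28, 9.17 and 8.18 in dorsal tissue, without overlap. Gli1 had levels of 6.43, 5.81 and 5.18 in ventral tissue, against 7.57, 7.46 and 5.98 in dorsal tissue, where dorsal replicate 3 fell among the ventral arrays. Hhip, a secreted hedgehog inhibitor and target that lay below the filter and was singled out after its values were seen, had 3.33, 3.63 and 3.93 in ventral tissue, against 5.36, 5.23 and 3.58 in dorsal tissue. Dorsal replicate 3 was the lowest dorsal array for Ptch1, Gli1 and Hhip, but the pathway as a whole did not share this. Of its 15 genes in the table, dorsal replicate 3 was the lowest dorsal array for 5 and the highest for 7, among them Gli3, Smo and Gas1. The summed log2 level of the 14 tested genes was 82.5 to 85.9 in ventral and 84.4 to 88.2 in dorsal tissue, highest on dorsal replicate 3. Gas1, a hedgehog coreceptor, had 0.46 ± 0.38 (adjusted p = 0.750). Shh, a ligand made by notochord, was near the filter on most arrays, with 4.54, 4.18 and 4.49 in ventral tissue, against 4.65, 5.18 and 4.47 in dorsal tissue.

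**Figure D4:**
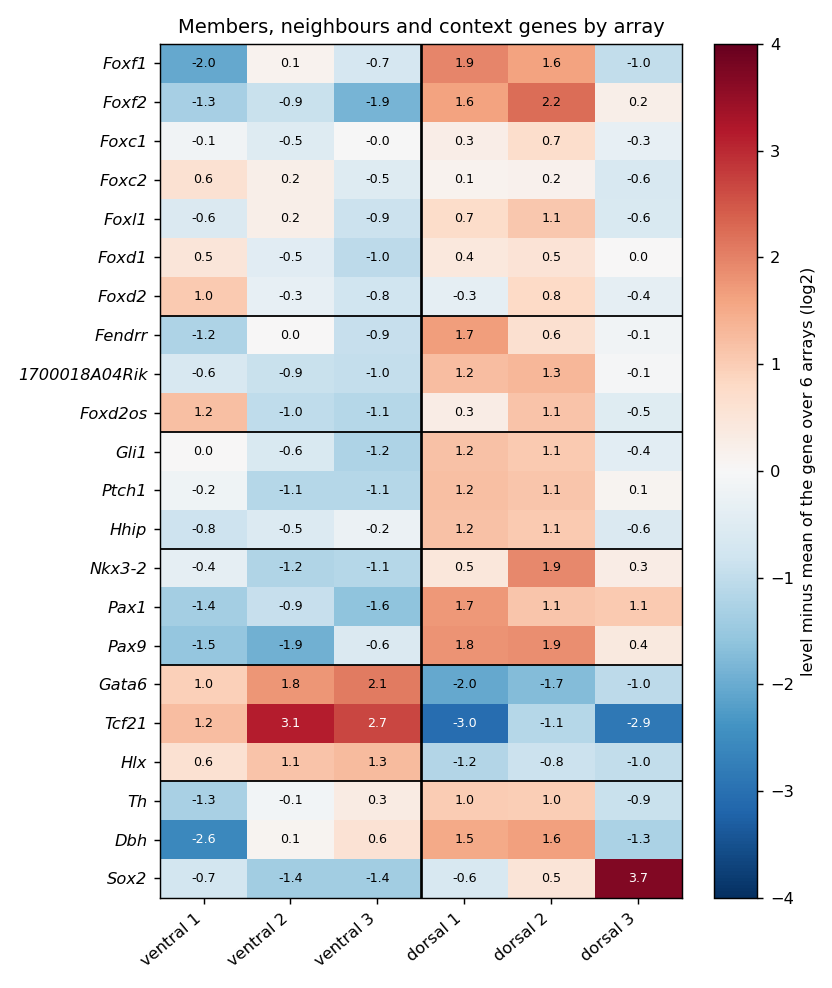
Level of each gene minus its mean over the 6 arrays (log2), ventral arrays left and dorsal arrays right, for the 7 members, 3 neighbouring noncoding RNAs, hedgehog targets, sclerotome genes, splanchnic genes, and Th, Dbh and Sox2. Foxf2 is above its mean on all dorsal arrays, as are Foxd1, Ptch1 and the sclerotome genes shown. Foxf1 is below its mean on dorsal replicate 3, as are Foxc1, Foxc2, Foxl1, Foxd2 and the noncoding RNAs shown. Gli1, Hhip, the splanchnic genes shown, Th and Dbh are also below their means on that array.

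Sclerotome genes mostly had negative log2 fold changes and splanchnic genes positive ones. Of 4 tested notochord markers, 3 were positive, with a median of 0.30. Of 14 tested sclerotome and early cartilage genes, 11 were negative and 3 positive, with a median of −0.96. In limma 2 of the 14 passed as higher in dorsal tissue, the sclerotome factor Pax1 (−2.60 ± 0.24, adjusted p = 0.0183) and the cartilage collagen Col2a1 (−1.75 ± 0.19, adjusted p = 0.0258). Pax9 (−2.69 ± 0.51, adjusted p = 0.118) and Nkx3-2 (−1.80 ± 0.42, adjusted p = 0.185), further sclerotome factors, had dorsal arrays wholly above the ventral ones. The adjusted p of Pax9 in limma was 0.0650 without the block, 0.305 without the filter and 0.00827 without replicate 3. All 12 tested splanchnic mesenchyme genes lay above 0, with a median of 1.31. Of these, Tcf21 (4.70 ± 0.29, adjusted p = 0.00347), Gata6 (3.19 ± 0.19, adjusted p = 0.00336) and Hlx (2.00 ± 0.19, adjusted p = 0.0183) passed as higher in ventral tissue, where 0.308% of all tested genes did. Without the block 4 of the 12 passed, the nuclear receptor Nr2f1 being the fourth. Nr2f2, a nuclear receptor of this mesenchyme, had 2.04 ± 0.38 (adjusted p = 0.113). Foxf1 and Foxf2, known from splanchnic mesoderm, thus had lower mean levels on the side where these 12 genes had higher ones, although Foxf1 did not pass. The summed log2 level of the 14 sclerotome genes was 79.8 to 84.0 in ventral and 90.7 to 98.5 in dorsal tissue, and that of the 12 splanchnic genes 82.2 to 93.2 in ventral and 68.3 to 71.4 in dorsal tissue, and the part of these cells in the Foxf2 and Foxf1 values was not tested. In both lists the filter left out dim genes, and both were chosen with earlier results of these data known.

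Genes reported elsewhere as targets of these factors were compared as well. Of 7 tested genes reported to depend on Foxf1 or Foxf2, none passed in limma, and the median was 0.60. Of the 7, 5 had an unadjusted p under 0.05, where 10.7% of all tested genes did, but the list was chosen with earlier results of these data known. Kdr, an endothelial receptor, had 1.00 ± 0.20 (adjusted p = 0.121), the signal Wnt5a −0.94 ± 0.25 (0.234) and the guidance molecule Sema3c −0.86 ± 0.22 (0.212). Kdr is also an endothelial marker, and of 9 tested endothelial markers 7 had positive values with a median of 0.55, so its part as a target was not tested. Of 4 tested genes reported as targets of Foxc factors, the T-box factor Tbx1 passed as higher in dorsal tissue (−1.86 ± 0.25, adjusted p = 0.0468). It did not pass without the block (0.0650), without the filter (0.142), without replicate 1 (0.0842) or without replicate 2 (0.0876). Hey2, a Notch target of arteries, had 0.90 ± 0.25 (0.257), and the chemokine receptor Cxcr4 had −0.32 ± 0.25 (0.737). Of the genes reported downstream of Foxd1 and Foxl1, the proteoglycan Dcn, reported as repressed by Foxd1 in kidney stroma, was higher in ventral tissue (2.14 ± 0.26, adjusted p = 0.0357). Its call was lost without the filter (0.119) or without replicate 3 (0.0504). Hspg2, another proteoglycan, had 0.38 ± 0.17 (0.499).

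The genes whose levels followed each member most closely were found by Pearson correlation over the 6 arrays, as a description, since with 6 arrays of 2 tissues many genes correlate highly. Between 21 and 38 tested genes reached a correlation of at least 0.95 with a given member. The 3 closest to Foxf2 were Scml2 (0.998), Wwp2 (0.990) and Saa2 (0.985). Those closest to Foxf1 were Nemp1 (0.993), Plpp6 (0.992) and Cyb561 (0.992). Foxc1 was followed by Rgs4 (0.996), Gm5528 (0.995) and Tmtc1 (0.990), and Foxc2 by Rpl34-ps2 (0.999), Rgs19 (0.990) and C1qc (0.990). For Foxl1 they were Gnpat (0.988), Utp11 (0.985) and Mall (0.981). For Foxd1 they were Ppih (0.995), Septin5 (0.992) and Cenpu (0.984), and for Foxd2 Iscu (0.989), Cstf1 (0.984) and Jag1 (0.982). No gene was among the 3 closest of more than 1 member. Of these 21 genes, Wwp2 and Saa2 passed limma's test as lower in ventral tissue (−2.01 ± 0.25, adjusted p = 0.0390, and −4.59 ± 0.37, adjusted p = 0.0114). Of all tested genes, 0.208% passed in that direction. Both genes were picked for following Foxf2 on these same arrays, so their calls are no separate evidence. Without the block neither passed (adjusted p = 0.0992 for Wwp2 and 0.0603 for Saa2), nor did either without the filter (0.123 for Wwp2 and 0.0647 for Saa2), and Wwp2 did not pass without replicate 1 (0.0554) or 2 (0.0601).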

How the data were processed

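RNA of microdissected tissue was amplified with the NuGEN Ovation Pico system and put on Affymetrix whole-transcript arrays, per the labels' protocols. The authors deposited log2 levels, made with Expression Console and RMA per the submitters' processing notes; no genome build is given in the sources used here. Amplification, and compression near background, can distort folds of dim genes. A single gene symbol was available for 24015 of 24973 probe sets.

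Ventral minus dorsal was fitted by limma 3.58.1 under R 4.3.3 (lmFit, eBayes, two-sided, replicate number as a block, Benjamini-Hochberg over 12028 genes with a mean of at least 4.52), and the code was tested on simulated data. The labels tie both tissues to the same embryos, but not each number to an embryo. Deviations from the tissue mean correlated, between arrays sharing a number, by 0.0992, 0.0763 and 0.226, and between the other ventral and dorsal arrays by −0.153 to 0.0805, which backs the pairing only weakly. If arrays pooled embryos, p-values measure the spread between pools. The number of arrays limits the precision.

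Named genes were all members, list genes past the threshold or among their list's 3 most changed, genome neighbours and the 3 best correlated genes; some of these are given only in counts. Members and lists were chosen with earlier results of these data known. Alternatives were other blocks, scalings, filters, an intensity trend and leaving out each replicate.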

Additional observations from a re-analysis of the deposited data

How the results depend on the processing

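Of 92 alternative values of the count of called genes, the 7 members and the 3 pairs of relatives, 85 kept their direction and side of the threshold, or, for counts, stayed within 1.5 times. Part of this was fixed in advance. For the pairs only the direction could change, since their exact permutation p cannot go below 0.1. A change of block, filter or intensity trend leaves the log2 fold change of a gene as it is, so only the side of the threshold could change there. The Foxf2 call was lost, with an unchanged log2 fold change of −2.71, without the replicate number as a block (adjusted p = 0.0742), with it as a random block (0.0588) and without the brightness filter (0.0753), where 24011 genes were tested. Over all 11 settings its adjusted p ran from 0.0110 to 0.0753. The Foxd2 difference was −0.78 to 0.48 when 1 replicate was left out and turned positive without replicate 2 or 3. Leaving out 1 replicate gave −2.73 to −0.57 for Foxf1, −3.03 to −2.51 for Foxf2, −0.81 to −0.05 for Foxc1, 0.11 to 0.29 for Foxc2, −1.10 to −0.57 for Foxl1 and −1.02 to −0.46 for Foxd1. The number of called genes was 62, 59 without the block (45 shared), 10 without the filter, 94 with an intensity trend in eBayes and 48 to 75 without 1 replicate. Among 33 further genes, signs turned for Gmds after shifting the arrays to the same median (−0.0054) and, when 1 replicate was left out, for Gmds (−0.23 to 0.34), Th (−1.71 to 0.076), Dbh (−2.82 to 0.15) and Foxd2os (−1.41 to 0.13). Without the block Tbx1 (adjusted p = 0.0650), Rgs5 (0.0732), Wwp2 and Saa2 did not pass. Without the filter Pax1 (adjusted p = 0.0756), Col2a1 (0.0816), Hlx (0.0647), Rgs5 (0.106), Tbx1, Dcn, Wwp2 and Saa2 did not pass, nor did Col2a1 without replicate 1 (0.0513) or 2 (0.0557). The stricter filter at the 60th percentile left out Foxd2. The cause of these changes was not tested. No detection calls were used, so levels near background limit Foxd1, Foxd2 and ventral Foxf2.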

Other observations

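The marker lists of other cells that these samples could hold are given here as values. Of 9 tested smooth muscle and pericyte markers, 8 had positive log2 fold changes (ventral over dorsal) with a median of 0.69, and Rgs5, a pericyte gene, passed as higher in ventral tissue in limma (2.18, adjusted p = 0.0258; 0.0732 without the block, 0.106 without the filter and 0.0675 without replicate 3). Foxf2, known from brain pericytes, was lower in the same tissue. No other marker list below had a gene past the threshold. All 9 macrophage markers were positive, with a median of 0.36, and 7 of 9 tested endothelial markers, with a median of 0.55. All 6 tested erythroid markers were negative, with a median of −0.64, as were 6 of 7 tested neuronal and neural tube markers, with a median of −0.95. Of 6 tested markers of coelomic epithelium and gonadal ridge, 5 were positive with a median of 1.05, and of 6 tested muscle and dermomyotome markers 4 were positive with a median of 0.36. Only 4 of 8 listed notochord markers were tested, with a median of 0.30, since Noto, Foxa2 and Foxj1 lay below the filter. Only 3 of 9 listed mesonephros markers were tested, with a median of 0.16, and Pax2, Pax8, Lhx1, Cdh16 and Emx2 lay below the filter. Of 9 tested cell cycle genes, 7 were negative with a median of −0.23.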
